A study of Homo sapiens with 24 samples.

Results

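The effect of sodium arsenite (NaAsO2) in cells already held under RK-33 was measured in the soluble cytoplasm, as 3 libraries of RK-33 plus NaAsO2 (RK_Ars_soluble, called Combo here) against 3 libraries of RK-33 alone (RK_soluble). These 6 libraries were taken by their labels from the 24 of the series. All came from U2OS, a human osteosarcoma cell line. RK-33 binds the ATP-binding site of DDX3, an RNA helicase encoded by DDX3X, and NaAsO2 is an oxidative stressor that induces stress granules. The RK-33 group received 6 µM RK-33, and the Combo group 6 µM RK-33 for 1 h before 500 µM NaAsO2 for 60 min. Both groups therefore carried the inhibitor, and the untreated group of the series (0.12% DMSO for 2 h, Ctrl) and the group given NaAsO2 without RK-33 were used for comparison. Nuclei were spun out of the lysates, a faster spin pelleted the insoluble fraction that holds RNP granules, and the supernatant was the soluble fraction. The 3 libraries of a group are repeats of the experiment, as the methods state. P-values rest on the spread between repeats, which the gene tests estimated over the 8 groups of all 24 libraries.

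Arsenite binds protein thiols and damages folding, and cells answer through several arms. Misfolded protein frees HSF1, which switches on genes of chaperones such as the HSP70 family. Metals free MTF1, which switches on metallothioneins, small proteins that bind zinc, cadmium and arsenite. Oxidized KEAP1 releases NRF2, and displaced BACH1 frees HMOX1, the gene of heme oxygenase 1. Kinases that phosphorylate eIF2α slow translation, favor assembly of stress granules and raise ATF4 targets (the integrated stress response), while MAP kinases switch on immediate early genes such as FOS and EGR1 within minutes.

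The promoters of genes from 3 of these arms are shown, a pair of chaperone genes, a pair of immediate early genes and the 1 metallothionein that rose and had a promoter in the table. Each is the stretch of 250 bases before the gene's start in RefSeq (GRCh38.p14), on the plus strand, with matches to 1 motif in capitals on either strand. Both pairs hold a gene with the searched motif and a gene without it, and the absence of a match says only that these letters are not in the window. HSPA6 (an inducible HSP70) is shown at chr1:161524290-161524539 with the heat shock element (the triplets GAA, TTC and GAA, each pair set apart by NN), which had no match in HSPA1A (another inducible HSP70) at chr6:31815293-31815542. MT1X (a metallothionein) is at chr16:56682220-56682469 with the metal response element TGCACNC or TGCGCNC. EGR1 (an immediate early zinc finger factor) is at chr5:138465229-138465478 with the CArG box bound by serum response factor, which had no match in FOS (a subunit of AP-1) at chr14:75278578-75278827.
HSPA6: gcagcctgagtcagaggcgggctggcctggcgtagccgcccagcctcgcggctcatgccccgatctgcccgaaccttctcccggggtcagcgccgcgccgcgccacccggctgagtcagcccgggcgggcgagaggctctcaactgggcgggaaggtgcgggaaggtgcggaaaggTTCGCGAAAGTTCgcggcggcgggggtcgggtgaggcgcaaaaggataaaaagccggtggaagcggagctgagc
HSPA1A: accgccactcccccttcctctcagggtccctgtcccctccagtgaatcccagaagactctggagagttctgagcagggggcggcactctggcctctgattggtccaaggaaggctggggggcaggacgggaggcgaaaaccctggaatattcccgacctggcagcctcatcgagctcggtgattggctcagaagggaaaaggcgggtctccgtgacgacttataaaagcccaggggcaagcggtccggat
MT1X: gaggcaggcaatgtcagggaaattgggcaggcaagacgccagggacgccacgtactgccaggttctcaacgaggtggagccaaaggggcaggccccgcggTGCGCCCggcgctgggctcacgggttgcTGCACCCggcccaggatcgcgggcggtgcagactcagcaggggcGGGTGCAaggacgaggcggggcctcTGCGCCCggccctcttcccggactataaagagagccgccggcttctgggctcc
EGR1: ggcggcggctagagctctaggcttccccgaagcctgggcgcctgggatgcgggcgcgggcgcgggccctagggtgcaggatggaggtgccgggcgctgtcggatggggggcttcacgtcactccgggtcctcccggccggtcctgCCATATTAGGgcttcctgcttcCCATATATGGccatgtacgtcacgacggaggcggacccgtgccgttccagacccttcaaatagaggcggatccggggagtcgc
FOS: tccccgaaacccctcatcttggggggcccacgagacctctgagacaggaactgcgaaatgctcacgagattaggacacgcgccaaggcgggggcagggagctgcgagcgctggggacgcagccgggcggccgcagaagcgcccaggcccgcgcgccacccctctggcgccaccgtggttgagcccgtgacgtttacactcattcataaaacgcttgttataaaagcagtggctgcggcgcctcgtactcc

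A promoter was found by symbol for 11789 of the 17666 genes tested. The heat shock element was in 0.314% of them, in 5 of 29 chaperone genes and in 1 of the 7 that rose, which is HSPA6. The metal response element was in 32.8% of all promoters and in 3 of 3 metallothionein list promoters, with 4 matches in MT1X. The CArG box was in 1.01% of all promoters, in 2 of 18 immediate early genes and in 1 of the 6 that rose and had a promoter, which is EGR1 with 2 matches. Of the 136 promoters of genes that rose, 0.735% held the heat shock element, 36.0% the metal response element and 2.21% the CArG box. A match is a description of these letters, not a bound site.

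The 6 libraries held 13260202 to 18659367 exon plus intron counts. Replicate 3 stood apart in both groups. Its share of counts on introns was the lowest under RK-33 (13.3%, against 22.6% and 17.8%) and the highest in Combo (28.4%, against 18.1% and 19.5%). RN7SL1, the RNA of the signal recognition particle, took 15.5% of exon counts in replicate 3 of RK-33 and 8.33% to 9.57% in the other 5 libraries. Between the groups the intron share differed by 4.11 points (17.9% ± 4.64 and 21.99% ± 5.62, SD, n = 3, exact two-sided permutation p = 0.4, where 0.1 is the smallest possible), and without both replicates 3 by -1.41 points. The circRNA content, back-splice counts as a share of back-splice plus linear counts, was 1.65% ± 0.167 and 1.64% ± 0.299 (exact two-sided permutation p = 1). Of the mesenchymal markers, 7 of 8 were at 1 CPM or more, and their summed level was 5300 to 5823 CPM under RK-33 and 4841 to 5777 CPM in Combo. The 15 markers of epithelial, leukocyte, endothelial, liver, erythroid and neuronal cells summed to 24.3 to 26.99 CPM and 21.6 to 29.7 CPM. Of these 15, 5 were at 1 CPM or more and 3 were at 0 counts in all 6 libraries.

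With NaAsO2 on top of RK-33, 323 genes rose and 33 fell of 17666 tested, past an adjusted p of 0.05 and a log2 fold change of at least 1 in size (edgeR's quasi-likelihood test). These are 1.83% and 0.187% of the tested genes, 2.02% together, and 14.9% had an unadjusted p under 0.05. Metallothioneins, inducible chaperones, immediate early factors and integrated stress response genes were among those that rose. The median log2 fold change of all genes was 0.00026. Values are TMM-normalized counts scaled to library size (CPM), so they are relative to the other RNA of the library, and a change per cell cannot be told apart from a change in the rest of the pool. Fold changes are given on the log2 scale ± their standard error. The 2 groups did not overlap in 321 of the genes that rose and 32 of those that fell, while 15.7% and 13.4% of all tested genes had no overlap with Combo higher and lower. Without both replicates 3, 140 genes rose and 20 fell, and without replicate 3 of Combo 182 rose and 22 fell. DESeq2 called 423 genes and a likelihood ratio test 452.

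**Figure D1:**
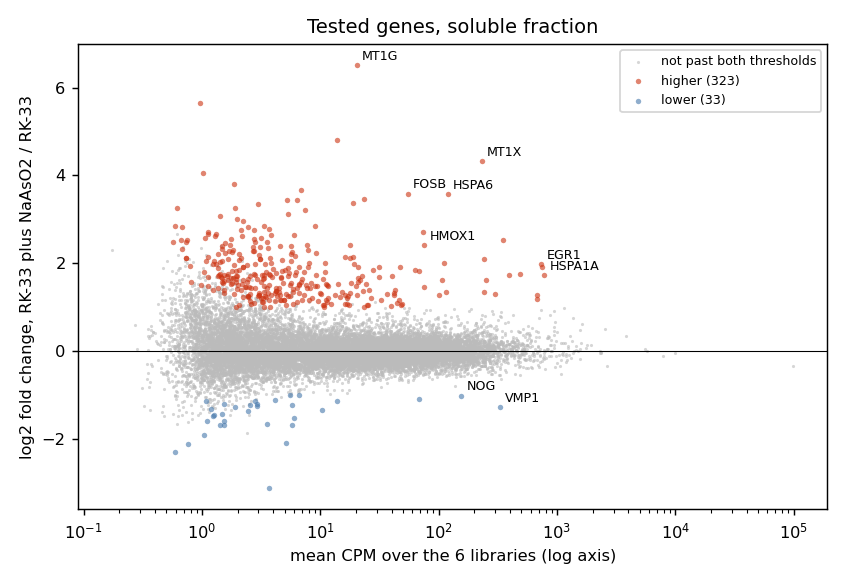
Log2 fold change of Combo over RK-33 (y) against the mean CPM over the 6 libraries (x, log axis) for the tested genes of the soluble fraction, 1 point per gene. Red points mark the 323 genes that rose and blue points the 33 that fell past both thresholds; MT1G stands highest.

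Metallothionein genes rose, MT1G by the largest fold of the genes of at least 5 CPM. MT1G was at 0.165, 0.350 and 0.808 CPM under RK-33 and at 40.3, 36.9 and 42.8 CPM in Combo (log2 fold change 6.51 ± 0.45, adjusted p = 2.29e-09), under 1 CPM in every RK-33 library. MT1X was at 17.99, 23.1 and 25.1 CPM under RK-33 and at 431, 449 and 441 CPM in Combo (log2 fold change 4.32 ± 0.20, adjusted p = 2.44e-12). MT1E was at 191, 220.0 and 261 CPM under RK-33 and at 753, 728 and 768 CPM in Combo (log2 fold change 1.74 ± 0.13, adjusted p = 7.51e-09). In all 3 genes every Combo library lay above every RK-33 library. MT1G lies at chr16:56666730-56668065 and MT1X at chr16:56682470-56684196 (GRCh38, GENCODE 40), in the metallothionein cluster of chromosome 16. Of the 11 listed metallothionein and zinc exporter genes 6 were not tested for low values, with 0 to 6 counts over the RK-33 libraries and 0 to 20 over the Combo libraries. MT1G itself was under 1 CPM on average in Ctrl and under RK-33 in both fractions and passed the filter through the groups given NaAsO2, so no count or median is given for the list. MT2A, another metallothionein, was at 584, 773 and 943 CPM and 1551, 1425 and 1531 CPM (log2 fold change 0.97 ± 0.14), just under the fold threshold. SLC30A1, which exports zinc, had a log2 fold change of 0.91 ± 0.20. Metallothionein genes resemble each other and exons of MT1X overlap those of ENSG00000259827, so the split of counts between them is uncertain.

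HSP70 and HSP40 chaperone genes also rose. HSPA6 was at 14.4, 16.1 and 24.97 CPM under RK-33 and at 204, 209.7 and 247 CPM in Combo (log2 fold change 3.58 ± 0.26, adjusted p = 3.71e-09). HSPA1A was at 298, 346 and 430.5 CPM under RK-33 and at 1129, 1164 and 1277 CPM in Combo (log2 fold change 1.73 ± 0.20, adjusted p = 7.66e-06), and HSPA1B was at 256, 295 and 381 CPM and 1086, 1181 and 1251 CPM (log2 fold change 1.92 ± 0.23, adjusted p = 8.19e-06). All 3 Combo libraries lay above all 3 RK-33 libraries in each. HSPA1A and HSPA1B are near-identical copies whose counts cannot be fully separated. DNAJB1, an HSP40 that loads clients onto HSP70, was at 321, 387 and 469.5 CPM and 909, 899.7 and 1039.9 CPM (log2 fold change 1.27 ± 0.15, adjusted p = 5.79e-06). DNAJA4, another HSP40, was at 47.8, 45.1 and 39.97 CPM and 162, 152 and 222 CPM (log2 fold change 2.01 ± 0.15, adjusted p = 5.60e-09). HSPA1L (2.00) and DNAJB4 (1.07, log2 fold changes) also rose, and the DNAJB4 call was lost without Combo replicate 3, without RK-33 replicate 2 and without both replicates 3. Exons of DNAJB1 overlap those of TECR.

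Of the 31 chaperones and cochaperones of the HSF1 list that were tested, 7 rose, 0 fell and the median log2 fold change was 0.47, against a background of 1.83% of genes that rose. Without both replicates 3, 6 rose. The list took 0.944%, 0.993% and 0.976% of exon counts under RK-33 and 1.48%, 1.47% and 1.62% in Combo. Members under the fold threshold were BAG3, a cochaperone of HSP70 (0.96 ± 0.11), ZFAND2A (0.97 ± 0.15) and HSPH1, an HSP70 exchange factor (0.85 ± 0.09). Other members moved less, with log2 fold changes of 0.55 for HSP90AA1, 0.50 for HSP90AB1 and 0.47 for HSPA8.

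Without NaAsO2, HSPA1A was higher under RK-33 than in Ctrl, and MT1X did not pass that test. In Ctrl, HSPA1A was at 27.6 ± 2.86 CPM (SD, n = 3) and under RK-33 at 358 ± 66.8 CPM, and HSPA6 was at 0.937 ± 0.181 CPM and 18.5 ± 5.66 CPM. MT1X by contrast was at 27.2 ± 6.45 CPM in Ctrl and 22.1 ± 3.68 CPM under RK-33, and HMOX1 at 17.7 ± 2.31 CPM and 23.96 ± 3.13 CPM. The log2 fold change of RK-33 over Ctrl was 3.70 ± 0.22 for HSPA1A (adjusted p = 4.87e-10) and -0.30 ± 0.18 for MT1X (adjusted p = 0.422). Further genes, of this arm and of others, also passed both thresholds for RK-33 over Ctrl. Among them were DNAJB1 (1.66), FOS (1.84), EGR1 (1.60), ATF3 (1.76) and DDIT3 (1.71, log2 fold changes). FOSB (0.23), MT1E (0.04) and HMOX1 (0.44) did not pass. That comparison shares the RK-33 libraries with the one described here.

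**Figure D2:**
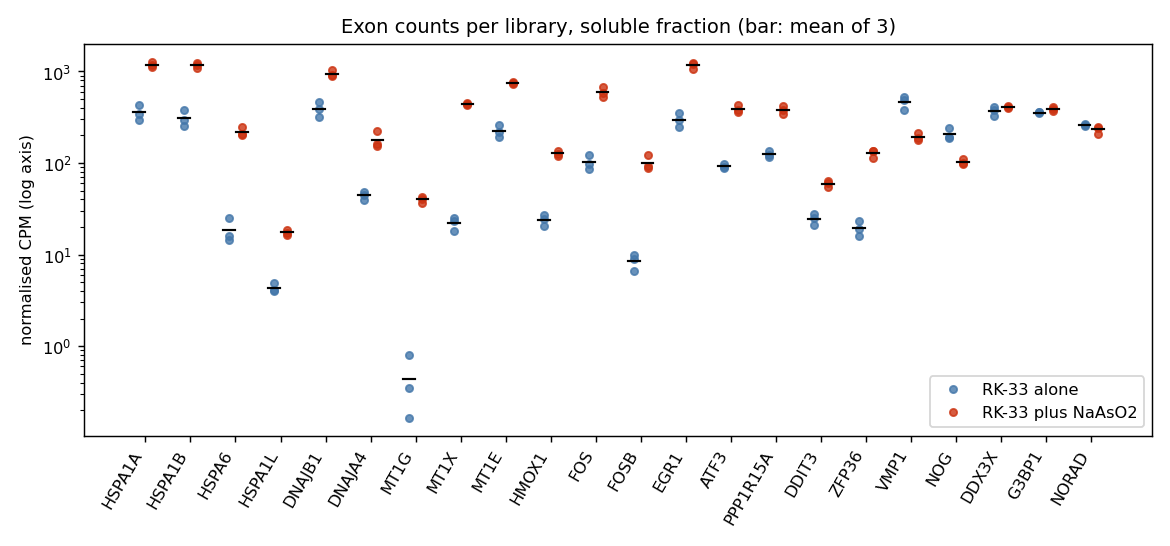
Normalized CPM (y, log axis) of 22 genes in each soluble library, blue for RK-33 alone and red for RK-33 plus NaAsO2, with a bar at the mean of the 3 libraries. Chaperone, metallothionein, immediate early and stress response genes are higher in every Combo library, VMP1 and NOG are lower, and DDX3X overlaps between the groups.

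HMOX1 (chr22:35380361-35394214), which degrades heme, was at 20.6, 24.4 and 26.9 CPM under RK-33 and at 136, 121 and 126 CPM in Combo (log2 fold change 2.41 ± 0.14, adjusted p = 9.31e-11). It was the only gene of the 25 tested NRF2 and BACH1 targets that rose (0 fell, median 0.06). GCLM, a subunit of glutathione synthesis, had a log2 fold change of 0.48 ± 0.13 and SLC7A11, the cystine importer, 0.24 ± 0.18. ENSG00000282602, a locus without a symbol 7740 bases from HMOX1, was at 0.908, 1.12 and 0.808 CPM and 24.7, 29.1 and 27.1 CPM (log2 fold change 4.80 ± 0.30, adjusted p = 2.27e-10). Among 115 genes without a symbol that rose, 12 (10.4%) lay within 10 kb of a named gene that rose, beside 21 of 1970 (1.07%) of the other genes without a symbol. The neighbors included ATF3, EGR1, ZFP36 and HSPA1A. The loci paired with LINC01579, STARD5, BICDL2, C9orf131 and CLTC overlapped the span of the named gene on the opposite strand, and counting ignored strand.

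Immediate early genes, many of them of transcription factors, were among those that rose. FOS was at 86.9, 97.5 and 124 CPM under RK-33 and at 523, 575 and 676 CPM in Combo (log2 fold change 2.52 ± 0.14, adjusted p = 3.36e-11). FOSB was at 9.82, 8.88 and 6.56 CPM under RK-33 and at 89.3, 93.5 and 121 CPM in Combo (log2 fold change 3.58 ± 0.22, adjusted p = 2.69e-10). EGR1 was at 248, 292 and 352 CPM under RK-33 and at 1069, 1193 and 1234 CPM in Combo (log2 fold change 1.97 ± 0.16, adjusted p = 2.47e-08). FOS and FOSB are subunits of AP-1. Of 25 tested members, 7 rose, 0 fell and the median was 0.57, and 7 also rose without both replicates 3. JUN, the partner of FOS, was at 435, 486 and 587 CPM and 862, 1002 and 1005 CPM (log2 fold change 0.93 ± 0.23), under the fold threshold. ARC (1.74), EGR4 (2.16), BTG2 (1.84) and ATF3 (2.10, log2 fold changes) rose. Lists share members, and ATF3 is counted again among the integrated stress response genes and BTG2 among the p53 and GADD45 genes.

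ZFP36, which binds AU-rich elements and recruits deadenylases, was at 18.8, 16.1 and 23.5 CPM and 115, 135 and 135 CPM (log2 fold change 2.72 ± 0.14, adjusted p = 1.31e-11). TOB1 (1.38) and BTG1 (1.02), which bind the deadenylase complex, and ZC3H12A, an endonuclease of inflammatory mRNAs (1.08), also rose, 4 of 23 decay factors tested (median 0.17). BTG1 was called in 9 of 18 alternatives, and ZC3H12A was not called without Combo replicate 3. SOCS1, an inhibitor of cytokine signaling, was at 3.71, 3.99 and 3.77 CPM and 36.1, 43.2 and 48.5 CPM (log2 fold change 3.47 ± 0.35, adjusted p = 9.42e-07). DUSP2, a MAP kinase phosphatase (1.33), and NFKBIZ (1.35) were the single members that rose of 12 MAP kinase feedback and 16 NF-kB genes, and the DUSP2 call was lost without Combo replicate 3, without RK-33 replicate 1, without RK-33 replicate 2 and without both replicates 3.

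The integrated stress response list had 6 of 23 tested genes higher, 0 lower and a median of 0.19, and 5 higher without both replicates 3. ATF3, a stress factor of the ATF family, was at 90.7, 87.6 and 97.1 CPM and 361, 384 and 432 CPM (log2 fold change 2.10 ± 0.10, adjusted p = 8.04e-12). PPP1R15A, which brings phosphatase to eIF2α, was at 123, 118 and 134 CPM and 340.0, 383 and 418 CPM (log2 fold change 1.61 ± 0.22, adjusted p = 8.27e-05). CHAC1, which degrades glutathione (1.72), DDIT3, which encodes CHOP (1.27), DDIT4, an inhibitor of mTORC1 (1.47), and ASNS, asparagine synthetase (1.42, log2 fold changes), rose too. ASNS was at 4.21, 3.08 and 2.25 CPM and 7.62, 7.9997 and 10.0 CPM, and its call was lost without both replicates 3. Exons of DDIT3 overlap those of MARS1 and MBD6, and counting ignored strand. Of 22 ER chaperone and unfolded protein response genes, 0 rose and 0 fell past both thresholds with edgeR's quasi-likelihood test, 0 with DESeq2 and 0 with the likelihood ratio test, and 2 had an unadjusted p under 0.05 (median -0.07).

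**Figure D3:**
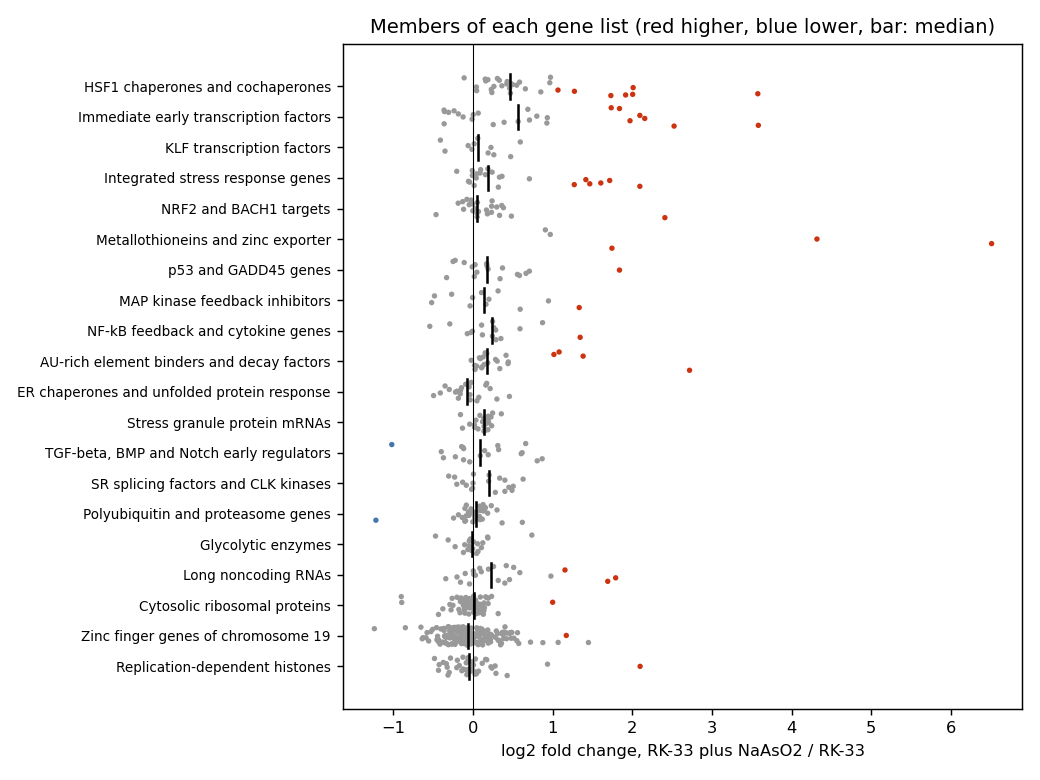
Log2 fold change of Combo over RK-33 (x) for the tested members of each gene list (rows), 1 point per gene, red where it rose and blue where it fell past both thresholds, with a bar at the median of each list except the metallothioneins. Chaperones and immediate early genes have medians of 0.47 and 0.57, while glycolytic enzymes and ribosomal protein genes stand near 0.

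Genes that rose most also included some outside these lists. DISP3 (a membrane protein) was at 1.07, 0.769 and 1.17 CPM and 10.3, 11.4 and 16.4 CPM (log2 fold change 3.66 ± 0.52, adjusted p = 9.52e-05). NFE2L3, a CNC factor related to NRF2, was at 4.87, 3.71 and 1.26 CPM and 22.997, 27.8 and 53.2 CPM (log2 fold change 3.38 ± 0.48, adjusted p = 1.08e-04), with replicate 3 lowest in one group and highest in the other. SLC10A1, a bile acid transporter, was at 1.403, 0.979 and 0.898 CPM and 5.93, 5.95 and 16.8 CPM (log2 fold change 3.11 ± 0.45, adjusted p = 1.14e-04), again highest in replicate 3 of Combo. BICDL2 was at 1.32, 1.33 and 0.449 CPM and 8.23, 10.0 and 16.7 CPM (log2 fold change 3.45 ± 0.51), also lowest and highest in replicate 3. ENSG00000279584 had a log2 fold change of 3.44 ± 0.31 and ENSG00000289222 of 3.22 ± 0.34. Both were low under RK-33, at means of 0.873 and 1.43 CPM. ENSG00000279584 averaged 0.410 CPM in Ctrl and 9.61 CPM in Combo, so its passing the filter owed much to Combo. Exons of DISP3 overlap those of ENSG00000285833, exons of NFE2L3 those of HNRNPA2B1, and exons of BICDL2 those of THOC6.

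Fewer genes fell. VMP1, an ER protein of autophagy whose exons overlap MIR21 and PTRH2, was at 527, 483 and 384 CPM and 178, 186 and 212 CPM (log2 fold change -1.27 ± 0.19, adjusted p = 1.91e-04). SNHG4, a snoRNA host, was at 113, 93.2 and 69.5 CPM and 41.1, 40.8 and 47.5 CPM (log2 fold change -1.09 ± 0.16, adjusted p = 1.35e-04). NOG, which encodes the BMP antagonist noggin, was at 193, 187 and 243 CPM and 97.9, 109 and 99.8 CPM (log2 fold change -1.02 ± 0.22, adjusted p = 0.00906). In all 3 genes the groups did not overlap. ENSG00000255400 (-2.09), ENSG00000280063 (-1.68), the entries named U3 (-1.52), ENSG00000267279 (-1.34), PAM16 (-1.24), LINC01303 (-1.14), ZNF785 (-1.01) and SMARCE1 (-1.01, log2 fold changes) were the other genes of at least 5 CPM that fell. NOG, PAM16, LINC01303 and ZNF785 lost their calls without both replicates 3. With 1 library left out, calls were also lost for SNHG4 (without RK-33 replicate 1), NOG (Combo replicate 1 or RK-33 replicate 3), ZNF785 and SMARCE1 (replicate 1 of either group) and PAM16 (each library but RK-33 replicate 3 and Combo replicate 2). SMARCE1 was also lost with the replicate block, NOG with the intron share as a covariate and ZNF785 on exon plus intron counts. The U3 entries pool several loci.

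Of 24 mRNAs of stress granule proteins 0 rose and 0 fell with edgeR's quasi-likelihood test, with DESeq2 or with the likelihood ratio test (median 0.14), and 1 had an unadjusted p under 0.05. DDX3X, the target of RK-33, was at 405, 379 and 323 CPM and 409, 424 and 401 CPM (log2 fold change 0.16 ± 0.20, adjusted p = 0.801), with overlapping groups. G3BP1, a core stress granule protein, was at 357, 358 and 353 CPM and 394, 409 and 373 CPM (log2 fold change 0.14 ± 0.11, adjusted p = 0.617). Of 85 cytosolic ribosomal protein genes 1 rose (RPL3L, 1.00) and 0 fell (median 0.01), and their share of exon counts was 2.87%, 3.09% and 3.42% under RK-33 and 3.24%, 2.96% and 3.05% in Combo. RPL3L passed in 5 of 17 alternatives. Of 20 glycolytic enzymes 0 rose and 0 fell with any of the 3 tests (median -0.01), and 2 had an unadjusted p under 0.05. These 2 also had an adjusted p under 0.05 but stayed under the fold threshold. NaAsO2 without RK-33 gave medians of 0.42 for the ribosomal protein genes and 0.53 for the glycolytic enzymes, on other libraries.

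The remaining lists held few calls, where 1.83% of all tested genes rose and 0.187% fell. Of 35 polyubiquitin and proteasome genes 1 fell (PSMA2, median 0.04, called in 9 of 17 alternatives), of 18 p53 and GADD45 genes 1 rose (BTG2, median 0.17), of 43 replication-dependent histones 1 rose (H2BC6, median -0.05), of 193 zinc finger genes of chromosome 19 1 rose (ZNF296, median -0.06, called in 14 of 17 alternatives and not without replicate 3 of either group or both) and of 19 TGF-beta, BMP and Notch regulators 1 fell (NOG, median 0.09). Among 11 KLF factors, 19 splicing factors with CLK kinases and 2 small structured RNAs, 0 rose and 0 fell with any of 3 tests. Their medians were 0.06, 0.20 and -0.15. At an unadjusted p under 0.05 were 2, 8 and 0 genes, beside 14.9% of all tested genes. Of the 19 splicing factors and CLK kinases, 4 had an adjusted p under 0.05 but stayed under the fold threshold. CLK1 (0.63) and SRSF7 (0.51, log2 fold changes) were among these. Of 22 long noncoding RNAs 3 rose (median 0.23).

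KCNQ1OT1, an antisense RNA of an imprinted locus, was at 14.5, 15.4 and 14.4 CPM and 32.0, 33.8 and 77.7 CPM (log2 fold change 1.69 ± 0.25, adjusted p = 1.27e-04), with replicate 3 of Combo far above the other libraries. MIR22HG, the host of miR-22, was at 29.5, 30.8 and 26.3 CPM and 58.5, 66.3 and 68.3 CPM (log2 fold change 1.16 ± 0.16, adjusted p = 5.55e-05). SNHG5 had a log2 fold change of 1.79 ± 0.28. NORAD, a long noncoding RNA that binds Pumilio proteins, was at 253, 263 and 265 CPM and 209.7, 248 and 244 CPM (log2 fold change -0.16 ± 0.10, adjusted p = 0.531). KCNQ1OT1 overlaps KCNQ1, whose sense reads cannot be told apart from it here.

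Genes that rose were shorter and had fewer exons than the tested genes as a whole. Their median exonic length was 2481 bases against 4745, their median number of exon blocks 3 against 9, and 35.6% had no symbol against 11.8%. Their median level was 4.13 CPM against 16.01, and 181 of the 323 were under 5 CPM. The 33 genes that fell were alike in this, with medians of 1981 bases, 2 exon blocks and 2.78 CPM. Of these 33, 36.4% had no symbol and 22 genes were under 5 CPM. Over 5 classes of about equal size by exonic length, 4.24%, 1.73%, 1.39%, 0.963% and 0.821% rose from the shortest to the longest. The median log2 fold change of all genes was 0.00 in the shortest and 0.05 in the longest class.

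Intron counts were tested in the same design and moved far more widely. Of 17406 genes with introns tested, 1534 were higher (8.81%) and 728 lower (4.18%), 13% together. With library size alone as the scaling, 1086 were higher and 1231 lower, with a median of -0.17 against 0.02, so the balance of directions rests on the scaling. FAM53C introns were at 25.3, 20.6 and 25.3 CPM and 307, 344 and 332 CPM (log2 fold change 3.79 ± 0.15, adjusted p = 1.04e-16). HMOX1 introns were at 17.9, 25.3 and 17.6 CPM and 429, 361 and 263 CPM (log2 fold change 4.10 ± 0.19, adjusted p = 2.74e-15). DISP3 introns were at 5.23, 7.603 and 3.44 CPM and 189, 195 and 256 CPM (log2 fold change 5.24 ± 0.30, adjusted p = 1.83e-13). Introns of TENT5C, a poly(A) polymerase (3.33), and HMGCS1, of sterol synthesis (2.83), rose with them. The unit is CPM of intron counts.

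Introns of the 145 genes that rose on exons and had introns tested were higher in 102 (70.3%) and lower in 1, beside 7.96% of all genes tested on both. HMGCS1 exons were at 92.0, 95.4 and 90.4 CPM and 157, 158 and 163 CPM (log2 fold change 0.78 ± 0.17), well under its intron change. In the NRF2 and BACH1 list 9 of 24 genes had higher introns and 1 lower. FTH1 introns, of ferritin heavy chain, were at 15.7, 17.2 and 22.8 CPM and 122, 106 and 94.1 CPM (log2 fold change 2.55 ± 0.19, adjusted p = 2.18e-11), while FTH1 exons had a log2 fold change of 0.23 ± 0.20. FTL introns, of ferritin light chain, had a log2 fold change of 2.51 ± 0.19 and FTL exons of 0.30 ± 0.17. In the chaperone list 11 of 24 genes had higher introns and 0 lower.

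Introns of 728 genes fell, among them members of lists whose other members rose. In the immediate early list MYC (-1.27) and CCN1 (-1.56) and in the NF-kB list CXCL8 (-3.75) and LIF (-2.36, intron log2 fold changes) fell, as did TXN (-1.35) of the NRF2 list and SPRY2 (-1.15) of the MAP kinase feedback list. KLF6 introns were at 68.0, 74.9 and 79.9 CPM and 11.5, 16.02 and 7.73 CPM (log2 fold change -2.68 ± 0.21, adjusted p = 1.04e-10), with an exon log2 fold change of -0.35 ± 0.12. PRDX3 introns, of a mitochondrial peroxidase, were at 57.2, 67.0 and 63.5 CPM and 13.2, 15.3 and 8.76 CPM (log2 fold change -2.35 ± 0.23, adjusted p = 7.22e-09). LINC02869 (-1.74), ENSG00000267922 (-1.55) and ENSG00000255400 (-2.52) completed the 5 with the smallest adjusted p. Of 67 ribosomal protein genes with introns tested, 21 were lower and 2 higher (median -0.61), although exons of 0 fell. RPL5 introns were at 19.3, 18.9 and 29.2 CPM and 3.57, 4.98 and 3.61 CPM (log2 fold change -2.46 ± 0.36, adjusted p = 6.28e-06). RPS19 introns were at 158, 183 and 185 CPM and 77.7, 69.4 and 60.0 CPM (log2 fold change -1.34 ± 0.19, adjusted p = 4.24e-06). RPL5 and RPS19 were chosen after their values were seen.

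**Figure D4:**
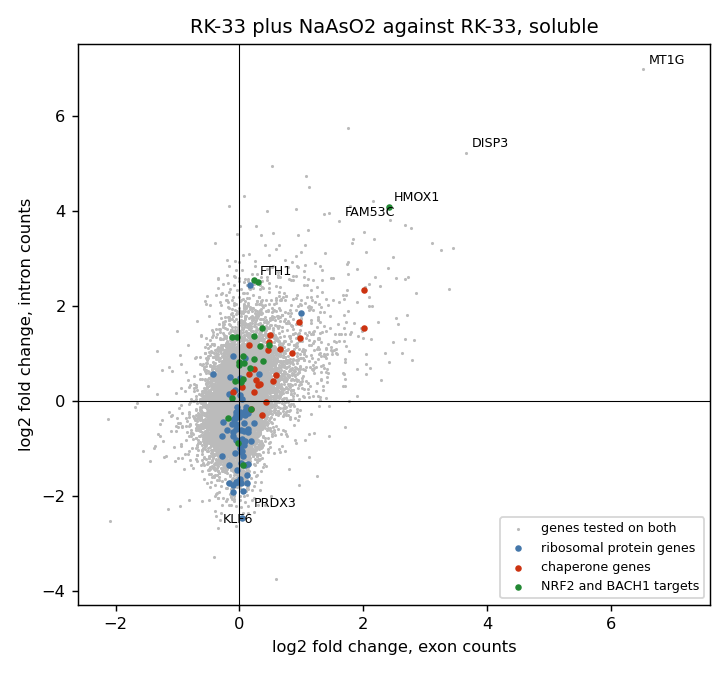
Log2 fold change of Combo over RK-33 on intron counts (y) against that on exon counts (x), 1 point per gene tested on both. Ribosomal protein genes (blue) lie near 0 on exons and mostly below 0 on introns, and HMOX1 among the NRF2 and BACH1 targets (green) is high on both.

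Whether RK-33 altered the effect of NaAsO2 was tested as the difference between 2 effects on separate libraries, with RK-33 and without. It passed both thresholds for 169 genes (0.957%), with 162 higher under RK-33 (0.917%) and 7 lower (0.0396%). NaAsO2 without RK-33 raised 87 genes (0.492%) and lowered 209 (1.18%), 1.68% together. Of the 323 genes that rose under RK-33, 36 also rose without it, which is 11.1% of the first set and 41.4% of the second. Of the 33 that fell, 15 also fell without RK-33, 45.5% and 7.18% of the sets. A call in 1 setting alone is not a difference between settings. Of the 323, 212 had a positive log2 fold change without RK-33, beside 9333 of all 17666 tested genes. The test of the difference, which shares the 6 libraries, was passed by 84 of the 323. Across 12127 genes of at least 5 CPM the log2 fold changes had a Pearson r of 0.30 and a Spearman rho of 0.23, given as a description since genes are not independent replicates. The count of 169 was 60 without both replicates 3, 77 without replicate 3 of RK-33 and 78 without replicate 1 of Ctrl.

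The log2 fold change of FOSB was 3.58 ± 0.22 with RK-33 and 1.17 ± 0.23 without (difference 2.41 ± 0.31, adjusted p = 5.37e-04). The log2 fold change of TUBB3 was 1.90 ± 0.24 with RK-33 and -0.63 ± 0.25 without (difference 2.53 ± 0.34, adjusted p = 6.98e-04). TUBB3 encodes a neuronal β-tubulin and its exons overlap those of another gene. DNAJA4 differed by 1.56 ± 0.21 (adjusted p = 6.98e-04), from 2.01 with RK-33 and 0.45 without. TENT5C differed by 1.55 ± 0.18 (adjusted p = 1.88e-04). CECR2, a bromodomain protein, fell without RK-33 (-1.09) and had a log2 fold change of 0.62 with it (difference 1.71 ± 0.18, adjusted p = 5.23e-05). ZFP36 differed by 1.26 ± 0.20 (adjusted p = 0.00131).

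In the opposite direction, KLF10, a TGF-beta early gene, rose without RK-33 (1.22 ± 0.19) and was at 244, 243 and 227 CPM under RK-33 and 213, 249 and 222 CPM in Combo (log2 fold change -0.06 ± 0.19). Its mean in Ctrl was 124 ± 13.5 CPM (SD, n = 3). RCAN1, an inhibitor of calcineurin, had log2 fold changes of -0.54 ± 0.12 with RK-33 and 0.58 ± 0.12 without (adjusted p of the difference = 0.00131). XAB2, OGDH and USP5 were the other genes of at least 5 CPM with the smallest adjusted p in this direction, with differences of -1.11, -1.13 and -1.19. All 5 of these calls were lost with library size alone as the scaling and without both replicates 3. Of 22 alternatives, RCAN1 passed in 20, XAB2 and KLF10 in 16, and OGDH and USP5 in 13.

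For the leading stress genes the difference between the 2 settings was 0.05 ± 0.29 for HSPA1A (adjusted p = 0.951), 1.33 ± 0.52 for HSPA6 (adjusted p = 0.186), 0.23 ± 0.19 for FOS (adjusted p = 0.542) and 0.51 ± 0.19 for HMOX1 (adjusted p = 0.17). These p-values do not show that the effects were equal. HSPA1A reached 88.7 ± 9.004 CPM after NaAsO2 without RK-33 and 1190.0 ± 77.2 CPM in Combo.

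**Figure D5:**
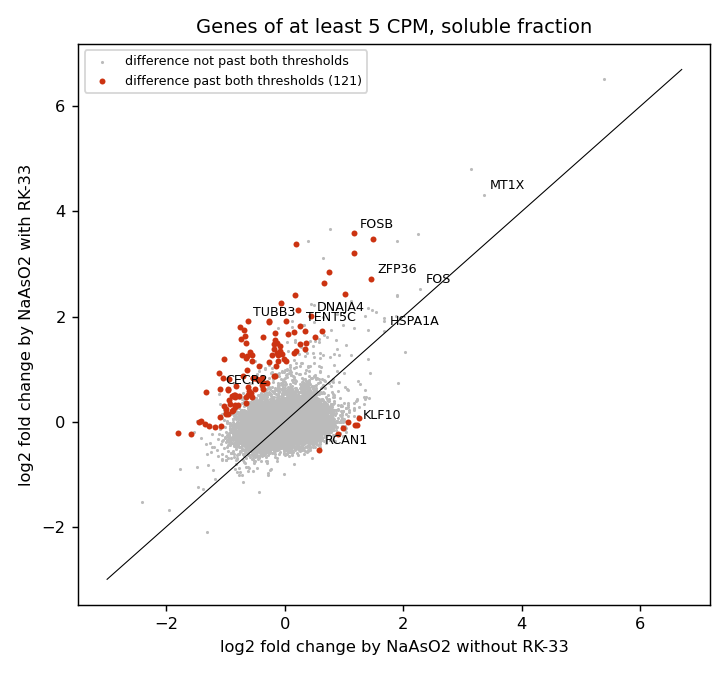
Log2 fold change by NaAsO2 with RK-33 (y) against that without RK-33 (x) for the genes of at least 5 CPM in the soluble fraction, with the line of equal change. Red points are the 121 of these genes whose difference passed both thresholds; most lie above the line, as FOSB and TUBB3 do.

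The same treatment was followed in the insoluble fraction, where 218 genes rose (1.23%) and 245 fell (1.39%), 2.62% together. Of the 323 genes that rose in the soluble fraction 135 also rose there (41.8% of the first set and 61.9% of the second), and of the 33 that fell 19 also fell (57.6% and 7.76%). Of the 323, 298 had a positive log2 fold change there, beside 9148 of all 17666 tested genes. For 9 of the 323 the difference between the fractions passed both thresholds, with the higher change in the soluble fraction. The difference between the fractions passed both thresholds for 40 genes (0.226%), 20 in each direction (0.113%). With each lysate as a block, which pairs the soluble and insoluble libraries of 1 number, 9 genes (0.0509%) passed, all with the higher change in the insoluble fraction.

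CCN1 was at 1136, 1062 and 1068 CPM and 815, 879.9 and 854 CPM in the soluble fraction (log2 fold change -0.36 ± 0.10) and had a log2 fold change of 1.27 ± 0.10 in the insoluble fraction (adjusted p of the difference = 2.26e-06). CCN1 is a secreted matrix protein and an early target of YAP. ID1 was at 170.2, 183 and 225 CPM and 183, 189 and 190.3 CPM in the soluble fraction (log2 fold change -0.04 ± 0.18) and had a log2 fold change of 2.20 ± 0.19 in the insoluble fraction (adjusted p of the difference = 8.38e-05). ID1 inhibits basic helix-loop-helix factors. In the insoluble fraction CCN1 went from 669 ± 85.2 CPM to 1614 ± 111 CPM and ID1 from 68.0 ± 4.68 CPM to 312 ± 20.9 CPM (SD, n = 3). NFKBIA was at 61.9, 63.6 and 72.3 CPM and 76.2, 82.7 and 82.7 CPM in the soluble fraction (log2 fold change 0.29 ± 0.10) and had a log2 fold change of 1.65 ± 0.11 in the insoluble fraction (adjusted p of the difference = 4.03e-05). NFKBIA encodes IκBα. NORAD was at 253, 263 and 265 CPM and 209.7, 248 and 244 CPM in the soluble fraction (log2 fold change -0.16 ± 0.10) and had a log2 fold change of 0.99 ± 0.10 in the insoluble fraction (adjusted p of the difference = 3.39e-04). LRRC58 differed in the same way (1.17 ± 0.16, adjusted p = 4.80e-04). These 5 were among the 9 that passed with the lysate block.

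The opposite difference, a higher change in the soluble fraction, was given by LINC01036 (-1.24), RNASEH2B (-1.08), MYO18B-AS1 (-1.78), FAR2P1 (-1.73) and HAS3 (-1.39), and 0 of these calls remained with the lysate block. LINC01036 was at 9.90, 10.2 and 10.8 CPM and 22.3, 24.7 and 29.8 CPM in the soluble fraction (log2 fold change 1.31 ± 0.15, adjusted p = 5.40e-06). HAS3, a hyaluronan synthase, was at 1.90, 2.87 and 2.25 CPM and 5.80, 5.67 and 6.28 CPM (log2 fold change 1.33 ± 0.22, adjusted p = 7.66e-04), and its exons overlap those of CHTF8.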

How the data were processed

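RNA of 24 libraries (4 treatments, 2 fractions, 3 replicates) was sequenced after fractionation, and 6 libraries make the main comparison. The authors aligned reads to GRCh38.p13 with STAR 2.7.2b, used SAMtools 1.2, and deposited raw counts of fragments on exons and on introns of GENCODE release 40 from featureCounts 1.5.3, without a strand option, with a minimum overlap of 25 bases for introns. CircRNA and linear counts came from DCC. Spike-in entries numbered 0 in the exon table, so values are relative. Here, a gene was kept if it averaged 1 CPM or more across libraries, and all 24 libraries were fitted in 8 groups with edgeR 4.0.16 (TMM, quasi-likelihood test, R 4.3.3), Benjamini-Hochberg adjusted, DESeq2 1.42.0 being an alternative. The code was tested on simulated data. Named genes were the 12 with the largest change in each direction of at least 5 CPM past both thresholds, called list members, genes the study names, and for introns and differences the 5 with the smallest adjusted p. Genes and lists were chosen with earlier results of these data known. Libraries of 1 number in the 2 fractions were taken as 1 lysate, since the study's methods pair the fractions, although their deviations from the group means correlated at -0.29 to 0.08. Python 3.11.15, pandas 2.3.3 and scipy 1.17.1 were used.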

Additional observations from a re-analysis of the deposited data

Results flagged for a closer look

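The effect of NaAsO2 differed between cells with and without RK-33 in 169 genes of the soluble fraction, by the test of the difference. The differences on the log2 scale (with RK-33 minus without) were FOSB 2.41, DNAJA4 1.56, CECR2 1.71, TENT5C 1.55, TUBB3 2.53, and in the other direction RCAN1 -1.12, XAB2 -1.11, KLF10 -1.28, OGDH -1.13, USP5 -1.19. The genes in the other direction passed in 13 (OGDH and USP5) to 20 (RCAN1) of 22 alternatives and were lost without both replicates 3.

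Under RK-33, the effect differed between the insoluble and the soluble fraction in 40 genes, and in 9 with the lysate block. The differences on the log2 scale (insoluble minus soluble) were NORAD 1.14, CCN1 1.63, NFKBIA 1.37, ID1 2.24, LRRC58 1.17, and in the other direction LINC01036 -1.24, RNASEH2B -1.08, MYO18B-AS1 -1.78, FAR2P1 -1.73, HAS3 -1.39. Intron shares were 13.3% in replicate 3 of RK-33 and 28.4% in replicate 3 of Combo. With the intron share of each library as a covariate, 61 genes passed for the first difference and 13 for the second.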

How the results depend on the processing

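The 356 exon calls became 929 on exon plus intron counts, 675 with no low-count filter, 119 at a mean of at least 5 CPM, 102 at a log2 fold change of at least 2, 644 on adjusted p alone, 160 without both replicates 3, and 204 to 353 with 1 library left out (204 without Combo replicate 3, 237 without RK-33 replicate 2). They were 363 with the replicate block. RK-33 and Combo libraries share only a number (correlations -0.32, -0.01 and -0.31), and 0 libraries correlated best with their own number. The 2262 intron calls became 511 at a log2 fold change of at least 2, 4997 on adjusted p alone and 1628 to 2370 with 1 library left out. The 169 differences between settings with and without RK-33 became 289 with DESeq2, 328 with the likelihood ratio test, 321 (319 higher, 2 lower) by library size alone, 293 unfiltered, 543 on the libraries of the contrast alone, 61 with the intron share as a covariate, 60 without both replicates 3, 46 at a log2 fold change of at least 2, 369 on adjusted p alone and 77 to 244 with 1 library left out. The 40 differences between fractions became 123 with DESeq2, 148 with the likelihood ratio test, 14 (10 higher, 4 lower) by library size alone, 160 unfiltered, 98 on the libraries of the contrast alone, 13 with the covariate, 9 with the replicate block, 14 without both replicates 3, 11 at a log2 fold change of at least 2, 85 on adjusted p alone and 16 to 47 with 1 library left out (16 without RK-33 soluble replicate 3). The causes were not tested. The covariate and the removal of both replicates 3 were chosen after seeing the data.

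The intron share difference of 4.11 points became -1.41 without both replicates 3 and ran from 0.887 to 6.45 with 1 library left out. The circRNA difference of -0.00457 points ran from -0.173 to 0.112, turning to 0.0482 and 0.0387 without RK-33 replicates 2 and 3 and to 0.0478 and 0.112 without Combo replicates 2 and 3. Of 2442 alternatives for named genes, 2271 kept direction and call, 144 lost the call, 17 gained it and 10 changed sign. Main log2 fold changes of genes near 0 changed sign for OGDH on exon plus intron counts (0.0776) and, over libraries left out singly or as both replicates 3, for XAB2 (-0.230 to 0.00915), USP5 (-0.0216 to 0.289), ID1 (-0.127 to 0.0863), RNASEH2B (-0.0238 to 0.169) and MALAT1 (-0.326 to 0.109).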
